A study of Mus musculus with 12 samples.

Results

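The comparison described here is between EGFP-positive and EGFP-negative cells, where EGFP is a green fluorescent reporter of cells that make melanin-concentrating hormone (MCH). It comprises 6 of the 12 RNA-seq samples of the study, 3 of sorted EGFP-positive cells and 3 of sorted EGFP-negative cells, chosen by their titles. The other 6 samples come from a sort of the same kind for mCherry, a red fluorescent reporter of hypocretin (HCRT) cells, and are used here to test where the EGFP comparison differed from it.

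All samples were C57BL/6 mouse cells from hypothalami dissected at embryonic day 18, dissociated and grown as neurospheres, floating clusters of neural progenitors and their progeny. Both EGFP groups received lentivirus at a multiplicity of infection of 10, so the negative cells had met the virus too, and bFGF, a growth factor that keeps progenitors dividing, was added at 10 ng/ml after 24 h. The cells were dissociated for sorting about a week later, and each EGFP library started from 2 ng of total RNA. The mCherry groups received an AAV in place of the lentivirus and 0.8 ng of RNA, so the reporter, the virus and the RNA input cannot be told apart in any difference between the sorts. The promoter that drove EGFP, the number of animals per culture and whether the 3 replicates were separate cultures are not given in the sources used here. Hence all p-values measure the spread between these libraries, which may be technical.

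MCH neurons of the lateral hypothalamus release a peptide cut from the precursor encoded by Pmch, and they are known for promoting REM sleep and feeding. They share this region with the hypocretin neurons, which are known for sustaining wakefulness. A neurosphere is a mixed culture in which radial glia, astrocytes, ependymal cells, oligodendrocyte lineage cells and young neurons can stand side by side, and in bulk samples of it fewer cells of a type and less RNA per cell cannot be told apart.

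The sequence before the start of Pmch is shown because this is the gene that the reporter stands for. The 250 bases upstream of its start site lie at chr10:88090822-88091071 on the plus strand of GRCm38.p6 (RefSeq). The capitals mark the one TATAAA found on either strand, which begins 27 bases before the start site. In all, 14.3% of 27025 genes hold TATAAA within the same distance of a start site.
Pmch: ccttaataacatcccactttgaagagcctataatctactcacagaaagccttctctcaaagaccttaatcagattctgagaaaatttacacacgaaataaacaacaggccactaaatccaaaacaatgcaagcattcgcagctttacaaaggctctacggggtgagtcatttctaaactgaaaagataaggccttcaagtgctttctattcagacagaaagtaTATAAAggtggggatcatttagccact

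Reads assigned to genes numbered 17029023, 26905418 and 30921109 in the EGFP-positive libraries and 24669903, 25801790 and 16291110 in the EGFP-negative libraries. A count of 3 reads, the limit that a count of 0 allows, corresponded to between 0.097 and 0.184 CPM, a gene's reads scaled to a common library total, in these libraries. Mitochondrially encoded genes took 0.766% to 0.872% of gene reads in the positive libraries and 1.16% to 1.36% in the negative libraries. EGFP-positive replicate 1 stood apart from the other positive libraries on the second principal component, which carried 23.1% of the variance, while the first component (48.5%) separated the groups. Among the 10393 genes that averaged 10 CPM or more, the positive libraries spanned more than 2-fold in 770, and replicate 1 was the lowest of them in 613, while the negative libraries spanned as much in 14. Emx2, a patterning factor of the dorsal telencephalon, had means of 18.5 and 16.2 CPM in positive and negative cells, and the hypothalamic factor Nkx2-1 had 26.6 and 25.4 CPM. These were chosen after values were seen, from a longer check of the labelled tissue, and neither passed the test. Among other forebrain factors of that check, Six3 had 20.4 and 16.2 CPM, Six6 2.65 and 2.25 CPM and Rax 0.863 and 0.721 CPM. Emx1 had 1.44 and 0.850 CPM and Tbr1 0.537 and 0.634 CPM. None of these passed, and Otp and Sim1 had too few reads to test. The check does not settle the tissue.

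Pmch rose in EGFP-positive cells. Its levels, scaled by the trimmed mean of M values (TMM), were 16.7, 18.6 and 18.4 CPM in the EGFP-positive libraries and 3.87, 4.95 and 4.71 CPM in the EGFP-negative libraries. Values written as 3 against 3 give the positive libraries first, each group in replicate order, and a value in parentheses after a gene is its log2 fold change. The 3 positive libraries lay close together and all above the 3 negative ones. The change was a log2 fold change 1.99 ± 0.18, adjusted p = 0.000316 with edgeR's quasi-likelihood test, where ± gives the standard error. The summed counts of 1296 and 311 reads correspond to 3.72 times as many reads per library depth in positive cells (3.28 to 4.22 at 95%, counting error alone). An exact two-sided permutation test of 3 against 3 libraries gave p = 0.1, the smallest it allows. Pmch passed under each alternative tried. The gene overlaps Parpbp on the opposite strand, and 435 of its 749 exonic bases (58.1%) lie in Parpbp exons. The library kit does not mark strand, so reads from the shared part cannot be told apart. Parpbp itself had 255 reads in the positive and 289 in the negative libraries, with a log2 fold change of -0.23 (adjusted p = 0.667).

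Among the MCH neuron markers, Pmch was the one that rose. Of the 13 genes listed, 12 were tested, 1 passed as higher and 2 as lower, against 8.99% and 7.07% of all genes tested. The median log2 fold change was -0.27. The lower members were 22.8, 25.5 and 23.4 CPM against 55.3, 65.8 and 57.7 CPM for Scg2, a granin of secretory vesicles (log2 fold change -1.32 ± 0.13, adjusted p = 0.000484), and 1.62, 2.25 and 2.08 CPM against 4.22, 5.81 and 4.42 CPM for Slc17a6, the vesicular glutamate transporter of hypothalamic glutamatergic neurons (log2 fold change -1.27 ± 0.27, adjusted p = 0.0123). In both, each positive library lay below each negative library. The count of lower members was 4 without EGFP-positive replicate 3 and 1 without EGFP-negative replicate 2, and Slc17a6 did not pass without EGFP-negative replicate 2, with an adjusted p of up to 0.0695. Hcrt, which encodes hypocretin, had 4 reads in the positive and 7 in the negative libraries, too few to test.

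Across the genome 16326 genes passed the filter on low counts, and 2622 of them (16.1%) passed the test, or were called, at an adjusted p below 0.05. Of these, 1468 (8.99% of those tested) were higher in EGFP-positive cells and 1154 (7.07%) lower. The counts given for each gene list are to be read beside these shares. The lower calls held the larger changes, with 155 past 4-fold against 32 among the higher ones. The groups did not overlap in 5822 genes (35.7%), among them 2612 of the 2622 called. A lack of overlap in a called gene is therefore no further support for it. The counts rose to 2884 higher and 2360 lower without EGFP-positive replicate 1. They were 661 and 480 without EGFP-positive replicate 2, and 744 and 543, 644 and 493, and 722 and 618 without EGFP-negative replicates 1, 2 and 3. Of 170 genes picked by the naming rule from this comparison, 122 passed in each of the 6 fits with 1 library left out and 48 did not. Exons of other genes cover 32.0% of the exonic bases of Cga, 29.0% of Tapbp, 24.9% of Slc32a1 and 23.1% of Mest, so reads of these genes may be split or shared.

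The largest rises among called genes of at least 5 CPM were led by Kdr, Ttr and Thbs2. Kdr, the main receptor for VEGF-A, had 14, 20.1 and 28.7 CPM in the EGFP-positive libraries and 3.56, 1.76 and 1.47 CPM in the EGFP-negative libraries. The change was the largest of these rises (log2 fold change 3.19 ± 0.37, adjusted p = 0.000856), and the lowest positive library was well above the highest negative one. Ttr, a thyroid hormone carrier made by the choroid plexus, had 165, 148 and 124 CPM against 25.3, 22 and 21.1 CPM (log2 fold change 2.67 ± 0.15, adjusted p = 3.32e-05). Cnmd, which encodes the anti-angiogenic factor chondromodulin, had 99.7, 102 and 85 CPM against 24.1, 20.4 and 21.1 CPM (log2 fold change 2.13). The naming rule admits only genes whose groups do not overlap. Within the positive group Kdr was lowest in replicate 1 while Ttr was highest there.

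Thbs2, a matrix protein that restrains vessel growth, had 18.5, 23.8 and 36.9 CPM against 5.83, 5.66 and 5.12 CPM (log2 fold change 2.25), and Cd109, a surface co-receptor that dampens TGF-beta signalling, had 15.8, 32.1 and 38.8 CPM against 5.12, 8.03 and 7.42 CPM (2.08). Cd36, the fatty acid and thrombospondin receptor, had 14, 22.9 and 28.5 CPM against 4.93, 6.53 and 4.24 CPM (2.06). In all 3 genes replicate 1 was the lowest positive library, above every negative library as the naming rule requires. The cholecystokinin receptor Cckbr rose by 1.96, the neuropeptide FF receptor Npffr1 by 1.90, the growth factor Pdgfd by 1.88 and the pattern recognition receptor Tlr2 by 1.86 on the log2 scale. Zfp185 (1.88), Fam107a (1.87), the transporter Slc43a3 (1.79) and Ccdc170 (1.79) completed the 15 genes that the naming rule gave.

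The largest falls by the same rule were led by Dcn, Pomc and Col1a1. Dcn, the matrix proteoglycan decorin, had 1.92, 1.74 and 2.56 CPM in the EGFP-positive libraries and 30.2, 25.7 and 31 CPM in the EGFP-negative libraries (log2 fold change -3.79 ± 0.21, adjusted p = 3.32e-05). Pomc, the precursor of ACTH and the melanocortins in pituitary cells and hypothalamic neurons, had 38.1, 28 and 20.5 CPM against 380.0, 315 and 282 CPM (log2 fold change -3.50 ± 0.23, adjusted p = 4.68e-05). Every negative library exceeded every positive one several times over in both. The other falls named by rule were Col1a1 (-3.20), Col3a1 (-3.17), Cxcl12 (-3.01), Aldh1a2 (-2.92), C1qb (-2.78), Pllp (-2.72), C1qc (-2.66), Cldn11 (-2.62), Apod (-2.58), Mag (-2.49), Tshb (-2.47), Igsf9b (-2.47) and Dscam (-2.45), all as log2 fold changes. For Pllp 54.2% of the exonic bases lie in exons of an antisense gene, Gm45767, so its reads cannot be told apart from that gene's.

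**Figure D1:**
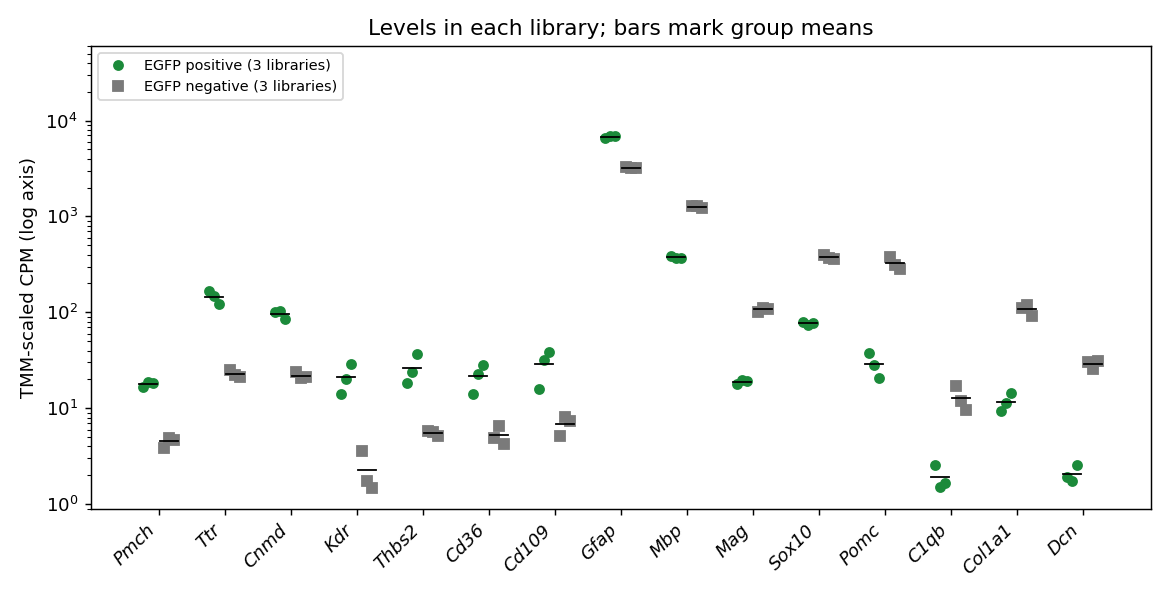
TMM-scaled CPM (log axis) of 15 genes in each of the 3 EGFP-positive libraries (green circles) and 3 EGFP-negative libraries (grey squares), with bars at the group means. The groups do not overlap in any gene shown, as in 2612 of the 2622 called genes. Pmch sits between 16.7 and 18.6 CPM in positive cells and between 3.87 and 4.95 CPM in negative cells.

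Astrocyte genes were higher in EGFP-positive cells as a group. Of 23 listed, all were tested, 18 passed as higher and 1 as lower, with a median log2 fold change of 0.76, against a median of -0.01 over all genes tested. Gfap, the intermediate filament of astrocytes, had 6544, 6920.5 and 6864 CPM in the EGFP-positive libraries and 3278, 3188 and 3164 CPM in the EGFP-negative libraries (log2 fold change 1.08 ± 0.06, adjusted p = 3.32e-05). Agt, the angiotensin precursor, had 574, 537 and 522 CPM against 250.4, 248 and 221 CPM (log2 fold change 1.18 ± 0.10, adjusted p = 0.000219). All positive libraries were above all negative ones in both genes. Other members that rose were Mlc1, a membrane protein of astrocyte endfeet (0.91), the secreted chaperone Clu (0.87) and the glycolytic enzyme Aldoc (0.74). The member called lower was S100b, a calcium-binding protein also made by oligodendrocyte lineage cells, which did not pass without EGFP-positive replicate 2 or EGFP-negative replicate 1. The list's genes summed to between 37966 and 39415 CPM in the positive and between 21228 and 22503 CPM in the negative libraries.

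Ependymal genes, which build the motile cilia that move cerebrospinal fluid, showed the same direction. All 20 were tested, 14 passed as higher and 0 as lower, and the median was 0.98. Foxj1, the master regulator of motile cilia, had 52.2, 53.2 and 46.4 CPM in the EGFP-positive libraries and 28.8, 27.8 and 25.1 CPM in the EGFP-negative libraries (log2 fold change 0.89 ± 0.13, adjusted p = 0.00283). Rsph1, of the ciliary radial spoke, had 51.9, 52.1 and 45.3 CPM against 27.1, 24.9 and 21.8 CPM (1.01), and the axonemal dynein Dnah9 had 15.8, 10.8 and 12.5 CPM against 5.94, 4.8 and 6.13 CPM (1.21). The positive libraries were above the negative ones in each of these genes. Cfap52 (1.33) and Pifo (1.09) also rose.

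Tanycyte and radial glia genes rose in part. Tanycytes are the glia of the third ventricle floor that take up thyroid hormone, and 6 of 14 tested genes passed as higher with 0 lower and a median of 0.38. The thyroid hormone transporter Slco1c1 had 83.9, 98.2 and 118 CPM against 36.2, 42 and 38.6 CPM (log2 fold change 1.36 ± 0.15, adjusted p = 0.000715) in positive against negative libraries. Crym, which binds thyroid hormone in the cytosol, had 143, 142 and 125 CPM against 72.2, 69.7 and 70.5 CPM (log2 fold change 0.95 ± 0.11, adjusted p = 0.000856), and the orphan receptor Gpr50 rose by 1.59. Of 21 radial glia and progenitor genes, 9 were higher and 0 lower (median 0.50). The count was 4 without EGFP-positive replicate 2 or EGFP-negative replicate 2 or 3, and 5 without EGFP-negative replicate 1. Without EGFP-positive replicate 1, 2 radial glia genes and 1 tanycyte gene passed as lower. The filament gene Vim had 877, 803 and 712 CPM against 541, 482 and 466 CPM (log2 fold change 0.68 ± 0.11, adjusted p = 0.00334), the Notch modifier Lfng rose by 0.62 and the progenitor factor Nr2e1 by 0.76. The matrix gene Tnc rose by 1.52, and its level in positive replicate 1, 201 CPM, was far below the 375 and 528 CPM of the other positive libraries.

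Choroid plexus genes gave 6 higher and 1 lower of 11 tested, and 5 more were below the filter. Rises numbered 3 without EGFP-positive replicate 2 or EGFP-negative replicate 1 or 3, and 2 without EGFP-negative replicate 2. Beside Ttr, the homeobox factor Otx2 had 53.6, 67 and 57.5 CPM against 36.7, 35.4 and 35.8 CPM (log2 fold change 0.72 ± 0.13, adjusted p = 0.00674). Clic6, a chloride channel family member, rose by 1.56 but did not pass without EGFP-negative replicate 2, with an adjusted p of up to 0.0652. Enpp2, the lysophospholipase autotaxin, which oligodendrocytes also make, fell, with 70.2, 83.9 and 132 CPM against 200.4, 225 and 245 CPM (log2 fold change -1.23 ± 0.21, adjusted p = 0.00515). The list's summed level was 322.5 to 331 CPM in the positive and 293 to 335 CPM in the negative libraries, so the sums overlapped.

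Oligodendrocyte lineage genes were lower in EGFP-positive cells. Of 14 precursor genes tested, 13 passed as lower and 0 as higher, with a median of -1.64 on the log2 scale. Of 19 genes of mature oligodendrocytes, 12 passed as lower and 1, Aspa, as higher, with a median of -1.77. Aspa did not pass without any one of EGFP-positive replicates 2 and 3 and EGFP-negative replicates 1, 2 and 3. The mature genes summed to between 1277 and 1329.5 CPM in the positive and between 4361 and 4482 CPM in the negative libraries. The precursor genes summed to between 1249 and 1301 CPM and between 3917 and 4208 CPM.

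Sox10, the transcription factor that specifies the lineage and drives its myelin genes, had 79.8, 73.1 and 78.2 CPM in the EGFP-positive libraries and 395, 368 and 358 CPM in the EGFP-negative libraries (log2 fold change -2.28 ± 0.10, adjusted p = 1.30e-05). Olig1, a helix-loop-helix factor of precursors, had 649, 564 and 538 CPM against 1322, 1413 and 1249.9 CPM (log2 fold change -1.19 ± 0.10, adjusted p = 0.000242). Both were lower in every positive library, Sox10 by the wider margin. Among the myelin genes, Mbp, a main structural protein of compact myelin, had 386, 369 and 372 CPM against 1287, 1281 and 1235 CPM (log2 fold change -1.75 ± 0.08, adjusted p = 1.30e-05). Mag, the adhesion molecule of the innermost myelin layer, had 17.7, 19.8 and 19.4 CPM against 101, 112 and 108 CPM (log2 fold change -2.49 ± 0.13, adjusted p = 2.13e-05). Replicates of a group lay close together in all of these genes. Myrf, the regulator that turns on myelin genes in maturing cells (-2.18), Bcas1, which marks newly forming oligodendrocytes (-2.18), Bmp4 (-2.28), Lhfpl3 (-1.86) and Itpr2 (-1.69) fell as well.

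Promoters of 2 of these genes are shown because Sox10, whose DNA-binding domain recognises short AT-rich motifs, fell along with them. The motif, the genes and the lists searched were chosen after these falls were known, and the 2 shown are among those that hold a match. The capitals mark ACAAAG or ACAATG on either strand (CTTTGT or CATTGT as printed on the reverse strand), in the 250 bases before the start site in GRCm38.p6 (RefSeq). Mag was read at the first of its 3 listed start sites, chr7:30914864-30915113 on the minus strand, with 1 match beginning 126 bases upstream. The last of the 3 sites held no match. Cnp, which encodes a myelin enzyme, was read at chr11:100574689-100574938 on the plus strand, with 1 match 167 bases upstream.
Mag: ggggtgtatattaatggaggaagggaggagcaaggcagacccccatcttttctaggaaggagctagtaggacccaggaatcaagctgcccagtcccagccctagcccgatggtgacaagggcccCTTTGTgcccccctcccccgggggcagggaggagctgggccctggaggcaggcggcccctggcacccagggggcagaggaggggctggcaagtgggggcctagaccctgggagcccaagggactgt
Cnp: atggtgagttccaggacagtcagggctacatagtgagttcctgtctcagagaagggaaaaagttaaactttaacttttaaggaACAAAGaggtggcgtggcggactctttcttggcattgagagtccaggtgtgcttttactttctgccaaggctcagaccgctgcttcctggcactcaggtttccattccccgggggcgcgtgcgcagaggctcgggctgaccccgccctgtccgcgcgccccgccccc

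A match at any start site was held by 8 of the 14 mature oligodendrocyte genes in the promoter table (57.1%), against 28.2% of all 27025 genes. Of the 8, Ermn, Gjb1 and Tspan2 did not pass the test in the EGFP comparison, while Mag, Mobp, Cnp, Opalin and Enpp6 were lower. Cldn11, Ugt8a and Pllp were lower too and held no match. The share was 20% of 10 precursor genes, 18.8% of 16 ependymal genes and 5.56% of 18 astrocyte genes. TATAAA was held by 14.3%, 20%, 12.5% and 22.2% of the same 4 lists. A match says only that these letters stand there, and a part of Sox10 in the falls was not tested.

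Genes of cells from outside the neural lineages also fell. Of 19 microglia and macrophage genes tested, 13 were lower and 2 higher, with a median log2 fold change of -2.66. Cx3cr1, the fractalkine receptor of microglia, had 0.18, 0.0387 and 0.0682 CPM against 3.56, 3.9 and 3.36 CPM, or 3, 1 and 2 reads against 91, 104 and 57. Its fitted log2 fold change of -5.32 depends on the prior count at so few reads. The complement gene C1qa had 0.959, 1.01 and 0.819 CPM against 7.43, 6.19 and 5.12 CPM (log2 fold change -2.75 ± 0.28, adjusted p = 0.000471) and Ctss, a lysosomal protease, 0.779, 1.12 and 1.3 CPM against 6.26, 8.48 and 7.13 CPM (-2.74), with all positive libraries below the negative ones. Lyz2, the lysozyme of macrophages, fell (log2 fold change -1.61). Members higher in positive cells were P2ry12 and Cd14, and that count was 1 without EGFP-positive replicate 2 or any one of the EGFP-negative replicates. Siglech was at 0 in all 6 libraries.

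Of 15 fibroblast and meningeal genes tested, 10 were lower and 1, Ogn, higher, with a median of -2.25. Ogn did not pass without EGFP-positive replicate 2 or 3 or EGFP-negative replicate 1 or 3. The collagen gene Col1a1 had 9.41, 11.3 and 14.3 CPM against 111, 119 and 92.5 CPM (log2 fold change -3.20 ± 0.19, adjusted p = 3.32e-05) and Col3a1 had 9.95, 16.6 and 23.1 CPM against 152, 157 and 141 CPM (log2 fold change -3.17 ± 0.26, adjusted p = 0.000219). The chemokine Cxcl12 had 1.26, 2.09 and 2.63 CPM against 12.8, 18.7 and 17.7 CPM (log2 fold change -3.01 ± 0.28, adjusted p = 0.000371). No positive library reached the lowest negative library in these genes. Over the 23 collagen chains, 10 were lower and 5 higher, and the higher count was 0 without EGFP-positive replicate 2 or EGFP-negative replicate 2 or 3, 1 without EGFP-negative replicate 1 and 3 without EGFP-positive replicate 3. Beside the fibrillar chains, Col6a3 (-1.94) and Col9a1 (-1.24) fell.

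Pituitary genes were present in the negative libraries and lower in the positive ones. Of 9 tested, 5 were lower and 0 higher (median -2.17), 7 more were below the filter, and Hesx1 was at 0 in every library. Tshb, the beta chain of thyrotropin, had 3.84, 2.67 and 2.66 CPM against 19.1, 14 and 17.4 CPM (log2 fold change -2.47 ± 0.23, adjusted p = 0.000321), and Cga, the alpha chain shared by the glycoprotein hormones, had 7.38, 3.95 and 4.4 CPM against 29.5, 25.9 and 25.2 CPM (log2 fold change -2.38 ± 0.24, adjusted p = 0.000484). Levels did not overlap between the groups in either gene. The pituitary list, Pomc included, summed to between 39.2 and 66.5 CPM in the positive and between 366 and 472 CPM in the negative libraries.

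Kdr was the one called member of 6 endothelial genes tested. Of the 17 listed genes, 11 were below the filter. Summed over the 3 positive and over the 3 negative libraries, Cdh5 had 0 and 11 reads, Cldn5 had 1 and 4, Tek had 0 and 12, Emcn had 1 and 16, Robo4 had 3 and 10, Erg had 1 and 0, Ly6c1 had 2 and 1, and Abcb1a had 0 and 2. Tie1 was at 0 in all 6 libraries. Eng had more reads, 12 and 57, and Slco1a4 had 38 and 17, more in the positive than in the negative libraries. The summed level of the list, Kdr included, was 19.9 to 35.1 CPM in the positive and 9.21 to 14.6 CPM in the negative libraries. Of 7 mural cell genes tested, 3 were higher and 1 lower. Acta2, smooth muscle actin, had 12.4, 13.6 and 9.79 CPM against 4.77, 3.6 and 3.77 CPM (log2 fold change 1.55 ± 0.21, adjusted p = 0.00193), while Vtn, which pericytes secrete, had 4.8, 6.2 and 6.79 CPM against 20.7, 25 and 21.7 CPM (log2 fold change -1.91 ± 0.19, adjusted p = 0.000446). Positive and negative libraries did not overlap in either gene, and Higd1b was at 0 throughout. The number of rises was 1 without EGFP-negative replicate 2, and Tagln, another higher member (0.82), shares 67.9% of its exonic bases with exons of other genes. Tagln did not pass without EGFP-negative replicate 2, with an adjusted p of up to 0.0552.

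**Figure D2:**
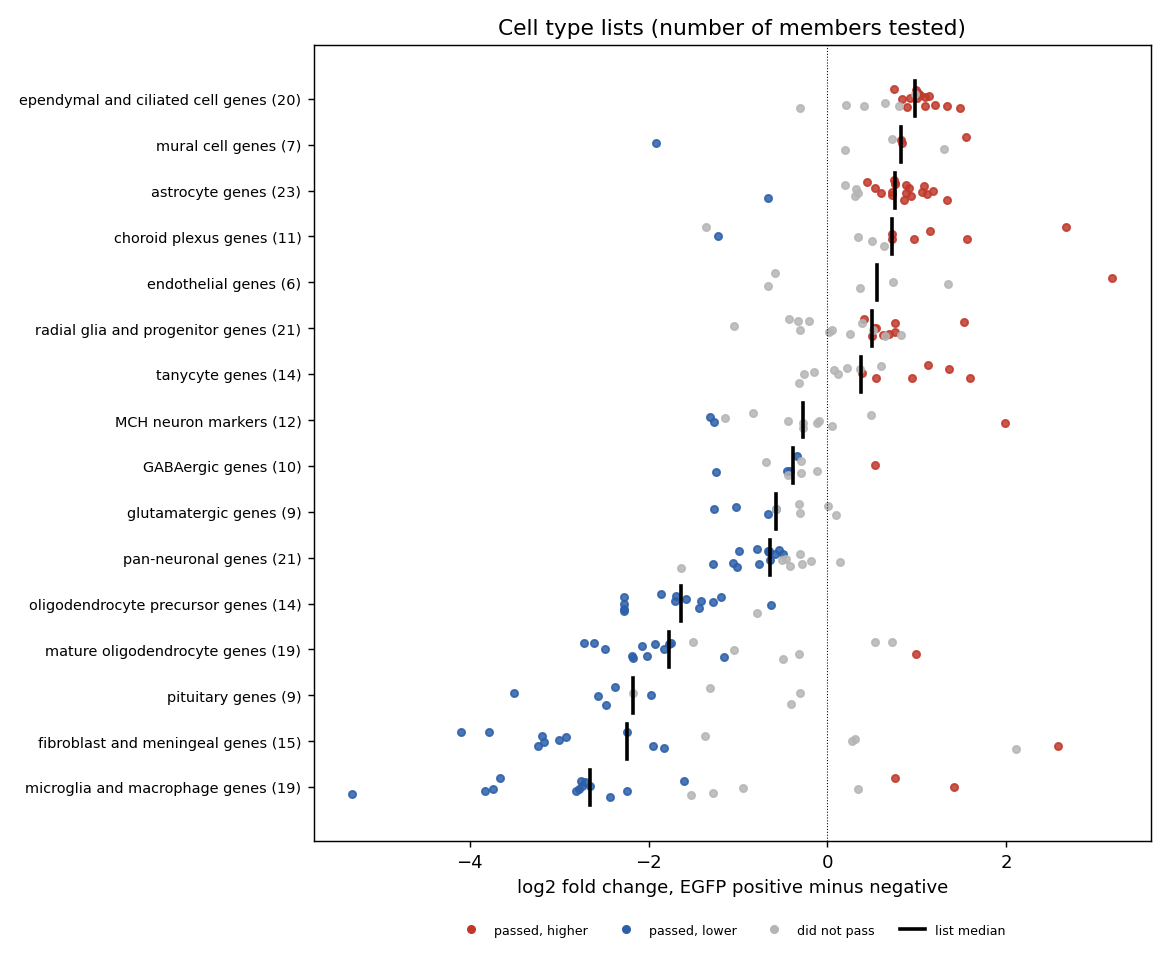
Log2 fold change of EGFP-positive against EGFP-negative cells (horizontal axis) for every tested member of 16 cell type lists, with red for genes that passed as higher, blue for lower, grey for those that did not pass and a black bar at each list's median. Medians run from 0.98 for ependymal genes to -2.66 for microglia and macrophage genes.

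Neuronal genes were lower in part in EGFP-positive cells. Of 21 pan-neuronal genes, 13 passed as lower and 0 as higher, and the median was -0.65 on the log2 scale. That number was 6 without EGFP-positive replicate 2 and 5 without EGFP-negative replicate 2. Gap43, of growing axons, had 118, 96.5 and 84.9 CPM in the EGFP-positive libraries and 221, 196 and 188 CPM in the EGFP-negative libraries (log2 fold change -1.01 ± 0.14, adjusted p = 0.00197). The microtubule protein gene Mapt had 219, 210.1 and 177 CPM against 381, 333 and 314 CPM (log2 fold change -0.76 ± 0.12, adjusted p = 0.00347), and Syn1, of synaptic vesicles, had 50.5, 53.1 and 56 CPM against 82.7, 86.5 and 82.9 CPM (log2 fold change -0.66 ± 0.11, adjusted p = 0.005). The positive libraries were the lower in each. Elavl3 (-1.06) and Stmn2 (-0.59) fell too. Summed over the list, levels were 1625 to 1747.5 CPM in the positive and 2603 to 2703 CPM in the negative libraries.

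By transmitter, 4 of 10 GABAergic genes were lower and 1 higher. Falls numbered 7 without EGFP-positive replicate 1, and 1 without EGFP-positive replicate 2 or any one of the EGFP-negative replicates. Slc32a1, the vesicular GABA transporter, had 2.64, 2.32 and 2.56 CPM against 6.73, 5.85 and 5.24 CPM (log2 fold change -1.25 ± 0.23, adjusted p = 0.00659). The higher count was 0 without EGFP-positive replicate 2 or 3 or any one of the EGFP-negative replicates. Of 9 glutamatergic genes tested, 4 were lower and 0 higher. The count was 2 without EGFP-positive replicate 2 or EGFP-negative replicate 1 or 3, and 1 without EGFP-negative replicate 2. Beside Slc17a6, the obligate NMDA receptor subunit Grin1 had 4.44, 4.96 and 5.22 CPM against 9.43, 11.1 and 9.31 CPM (log2 fold change -1.03 ± 0.19, adjusted p = 0.00669). Neither transmitter transporter, Slc32a1 or Slc17a6, reached 10 CPM in any library.

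The machinery that makes and stores peptides split. Cpe, the carboxypeptidase that trims prohormones, rose, with 6591, 6724 and 7075 CPM against 3342, 3822 and 3873 CPM (log2 fold change 0.89 ± 0.08, adjusted p = 0.000283). Chga, a granin of dense-core vesicles, fell, with 20, 17.7 and 15.7 CPM against 51.7, 49.2 and 49.7 CPM (log2 fold change -1.50 ± 0.14, adjusted p = 0.000413), as did Pcsk2, the prohormone convertase 2, with 4.98, 4.92 and 6.48 CPM against 14.8, 13 and 12 CPM (log2 fold change -1.28 ± 0.19, adjusted p = 0.00304). Cpe was high in every library and higher in positive ones, while the granin and the convertase were low. Of the 17 genes of this list, 2 were higher and 4 lower, against 8.99% and 7.07% of all genes tested. The higher count was 1 without EGFP-positive replicate 2 or EGFP-negative replicate 2 or 3, and the lower count was 7 without EGFP-positive replicate 1.

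Among 26 hypothalamic neuropeptide genes, 15 were tested, 1 was higher and 2 lower, against 8.99% and 7.07% of all genes tested. Kiss1 was at 0 in all libraries. The lower count was 4 without EGFP-positive replicate 1 and 1 without any other one library. Pdyn, the dynorphin precursor, had 13, 15.3 and 13.4 CPM in the EGFP-positive libraries and 4.69, 4.05 and 6.89 CPM in the EGFP-negative libraries (log2 fold change 1.42 ± 0.23, adjusted p = 0.00364), and no negative library reached the lowest positive one. Pomc fell as given above. Sst, the somatostatin gene, had a log2 fold change of -0.81 but did not pass without EGFP-positive replicate 2 or 3 or EGFP-negative replicate 1, 2 or 3, with an adjusted p of up to 0.153.

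Of 32 tested transcription factors that pattern the hypothalamus, 4 were higher and 5 lower, against 8.99% and 7.07% of all genes tested. Rises numbered 2 without EGFP-positive replicate 2 or EGFP-negative replicate 1. Fezf2, of the early forebrain, had 19.4, 21.2 and 18.6 CPM against 9.35, 10.1 and 9.78 CPM (log2 fold change 1.02 ± 0.15, adjusted p = 0.00288). Nkx2-2, of ventral progenitors and oligodendrocyte precursors, had 17.7, 14.4 and 12.9 CPM against 54.6, 47.6 and 44.2 CPM (log2 fold change -1.70 ± 0.17, adjusted p = 0.000449), and Gsx1, a progenitor factor, had 31.1, 30.4 and 29.1 CPM against 64.6, 56.7 and 59.4 CPM (adjusted p = 0.00114). Groups were apart in these 3 genes. Nr5a1, the factor of the ventromedial hypothalamus and of pituitary gonadotropes, was below 3 CPM in every library and fell (-3.09).

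Ion channel and receptor genes gave more falls than rises, though most did not pass. Over all genes tested, 7.07% were lower and 8.99% higher. Of 31 channel genes, 7 were lower and 2 higher. Falls numbered 16 without EGFP-positive replicate 1, 3 without EGFP-positive replicate 2 or EGFP-negative replicate 1, and 4 without EGFP-negative replicate 2. The number of rises was 1 without EGFP-positive replicate 2 or EGFP-negative replicate 2 or 3. The potassium channel gene Kcnd2 had 22.8, 27.6 and 29.8 CPM against 51.9, 51.6 and 50.1 CPM (log2 fold change -0.94 ± 0.14, adjusted p = 0.00303), and the calcium channel gene Cacna1b (-1.48) also fell. Kcnj16, an inward rectifier of glia, rose, with 41.3, 68.5 and 84.8 CPM against 20, 28.8 and 27 CPM (log2 fold change 1.36 ± 0.25, adjusted p = 0.00739). Of 25 glutamate, GABA and glycine receptor genes, 6 were lower and 2 higher. Those counts were 10 and 5 without EGFP-positive replicate 1. The lower count was 2 without EGFP-positive replicate 2 or any one EGFP-negative replicate, and the higher count 1 without EGFP-negative replicate 2. The kainate receptor gene Grik3 fell (-1.54), and Grm3, a glutamate receptor that astrocytes carry, rose, with 128, 187 and 229 CPM against 76.8, 88.5 and 92.9 CPM (log2 fold change 1.08 ± 0.19, adjusted p = 0.00621).

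Interferon-stimulated and antigen presentation genes gave more rises than any other pathway list. Of 30 genes, 21 were higher and 1, Mx2, lower, with a median of 0.83. The higher count was 13 without EGFP-negative replicate 1, and Mx2 did not pass without EGFP-positive replicate 2 or EGFP-negative replicate 3. Ifit3, an antiviral effector induced by interferon, had 62.1, 62.1 and 66.5 CPM in the EGFP-positive libraries and 23.4, 24.7 and 23.6 CPM in the EGFP-negative libraries (log2 fold change 1.41 ± 0.12, adjusted p = 0.000274), and Ifit1 had 53.2, 43.8 and 41.8 CPM against 13.2, 17.3 and 17.3 CPM (log2 fold change 1.54 ± 0.17, adjusted p = 0.000715). The class I histocompatibility genes H2-D1 and H2-K1 had 469, 411 and 389 CPM against 233, 221 and 222 CPM and 264, 246 and 224 CPM against 136, 123 and 114 CPM, in that order (log2 fold changes 0.91 and 0.98). Levels did not overlap between groups in any of these 4 genes. H2-D1 and H2-K1 are closely similar family members whose reads the counting may split. Tapbp, which loads peptides onto class I molecules, rose by 0.96. Microglia and macrophage genes, which also carry this programme in tissue, summed to 65.8 to 69.0 CPM in the positive and 136 to 163 CPM in the negative libraries. Their part in this result was not tested.

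Genes known as p53 targets gave 10 higher and 0 lower of 20, with a median of 0.65. The count was 5 without EGFP-positive replicate 2 or EGFP-negative replicate 2 or 3, and 1 gene was lower without EGFP-positive replicate 1. Ddit4l, an inhibitor of mTOR signalling, had 106, 94.9 and 91.4 CPM against 45.3, 48.5 and 48.8 CPM (log2 fold change 1.04 ± 0.12, adjusted p = 0.000773), and the stress cytokine gene Gdf15 had 20.8, 15.1 and 16 CPM against 8.02, 7.28 and 6.66 CPM (log2 fold change 1.24 ± 0.19, adjusted p = 0.00304). Both were higher in each positive library. Sesn2 (0.69), the death receptor gene Fas (0.99) and Perp (1.27) rose as well.

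Lipid uptake and transport genes gave 7 higher and 2 lower of 15 tested (median 0.45). Apoe, the main lipid carrier of astrocytes, had 13532, 10565 and 9176 CPM against 6768, 5942 and 5456 CPM (log2 fold change 0.87 ± 0.14, adjusted p = 0.00333), and Lpl, which frees fatty acids from lipoproteins, had 41.9, 32.7 and 32.1 CPM against 12.5, 15.7 and 16.7 CPM (log2 fold change 1.25 ± 0.18, adjusted p = 0.00217). Apod, another lipid carrier, fell, with 6.3, 4.57 and 3.69 CPM against 33.4, 27.6 and 25 CPM (log2 fold change -2.58 ± 0.23, adjusted p = 0.000285). Of 20 sterol synthesis genes 3 were higher and 0 lower, against 8.99% and 7.07% of all genes tested. The higher count was 9 without EGFP-positive replicate 1, and 1 without EGFP-positive replicate 2 or EGFP-negative replicate 1 or 2. Msmo1, a demethylating oxidase of the pathway, had 705, 731 and 786 CPM against 479, 533 and 509 CPM (log2 fold change 0.55 ± 0.09, adjusted p = 0.00415), with the lowest positive library above the highest negative one.

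Among 17 VEGF pathway and angiogenesis genes tested, 6 were higher and 1 lower. Rises numbered 3 without EGFP-positive replicate 2 or any one EGFP-negative replicate, and the lower count was 3 without EGFP-positive replicate 1. Kdr, Cnmd and Thbs2 led the rises. The ligand gene Vegfd fell, with 0.839, 0.968 and 0.751 CPM against 2.58, 3.38 and 3.48 CPM (log2 fold change -1.87 ± 0.33, adjusted p = 0.00531).

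BMP pathway genes gave 6 higher and 3 lower of 20. The number of rises was 2 without EGFP-positive replicate 2 or EGFP-negative replicate 2 or 3, and 3 without EGFP-negative replicate 1. Id3 and Id1, which BMP signals induce, had 1683, 1311 and 1154 CPM against 875, 785 and 723 CPM (log2 fold change 0.80 ± 0.14, adjusted p = 0.00548) and 241, 190.5 and 181 CPM against 135, 127 and 109 CPM (log2 fold change 0.72 ± 0.14, adjusted p = 0.00847), in that order. The ligand genes Bmp4 and Bmp2 had 11.6, 12.3 and 10.8 CPM against 54.5, 58.8 and 54.7 CPM (log2 fold change -2.28 ± 0.14, adjusted p = 3.32e-05) and 0.48, 0.968 and 1.4 CPM against 3.4, 3.75 and 4.42 CPM (log2 fold change -1.97 ± 0.38, adjusted p = 0.00886). Positive replicate 1 was the highest library for both Id genes.

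Wnt pathway genes gave 4 higher and 0 lower of 21 tested, against 8.99% and 7.07% of all genes tested. The higher count was 2 without EGFP-negative replicate 1, and the lower count was 2 without EGFP-positive replicate 1. The ligand gene Wnt7b had 195, 196 and 195 CPM against 131, 121 and 118 CPM (log2 fold change 0.67 ± 0.10, adjusted p = 0.00281), and Dkk3, of the Dickkopf family, had 227, 301 and 343 CPM against 154, 155 and 148 CPM (log2 fold change 0.93 ± 0.15, adjusted p = 0.00345). Both were higher in each positive library.

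Notch genes gave 3 higher and 2 lower of 16, against 8.99% and 7.07% of all genes tested. The target genes Hey1 (0.52) and Hey2 (0.74) and the modifier Lfng (0.62) were higher. The ligand genes Dll3 (-1.53) and Jag2 (-1.60) were lower. Rises numbered 1 without EGFP-positive replicate 2 or any one EGFP-negative replicate and 5 without EGFP-positive replicate 3. Falls numbered 0 without EGFP-positive replicate 2 or EGFP-negative replicate 2 or 3, and 1 without EGFP-negative replicate 1. Hey1 and Hey2 did not pass without EGFP-positive replicate 2 or any one EGFP-negative replicate (adjusted p of up to 0.076 and 0.101), and Dll3 and Jag2 reached an adjusted p of 0.0829 and 0.11.

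Of 17 FGF receptor and response genes, 3 were higher and 0 lower, against 8.99% and 7.07% of all genes tested. All these cultures were given bFGF. The receptor gene Fgfr1 had 162, 179 and 200.5 CPM against 126, 123 and 116 CPM (log2 fold change 0.57 ± 0.11, adjusted p = 0.0101), and Fgf2, which encodes bFGF itself, had 8.09, 6.55 and 9.55 CPM against 2.42, 1.69 and 4.12 CPM (log2 fold change 1.58 ± 0.33, adjusted p = 0.0117). Fgfr1 did not pass without EGFP-positive replicate 2 or EGFP-negative replicate 2 or 3, with an adjusted p of up to 0.0589, and Fgf2 did not pass without EGFP-negative replicate 1, with an adjusted p of up to 0.0582. The number of rises was 5, with 4 lower, without EGFP-positive replicate 1. It was 1 without EGFP-positive replicate 2 or any one EGFP-negative replicate, and the lower count was 1 without EGFP-positive replicate 3.

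Retinoic acid pathway genes gave 4 lower and 0 higher of 14 tested. Aldh1a2, the retinoic acid synthase that meninges carry, had 2.04, 0.659 and 1.09 CPM against 9.11, 10.4 and 8.25 CPM (log2 fold change -2.92 ± 0.36, adjusted p = 0.00107). The fibroblast and meningeal list, which holds Aldh1a2 itself, was low in the same libraries. The part of those cells in this value was not tested. Crabp1, an intracellular retinoic acid carrier, had a log2 fold change of -1.08 but did not pass without EGFP-negative replicate 2, with an adjusted p of up to 0.0535. The lower count was 2 without EGFP-positive replicate 2 or any one EGFP-negative replicate. The higher count was 1 without EGFP-positive replicate 1 or 3 or EGFP-negative replicate 1.

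Genes of cell division hardly separated the groups. Of 40 tested, 2 were lower and 0 higher, against 7.07% and 8.99% of all genes tested, with a list median of -0.15. Cdc20, which activates the anaphase-promoting complex, had 103, 103 and 91.5 CPM against 139, 131 and 124 CPM (log2 fold change -0.40 ± 0.11, adjusted p = 0.0366), and the replication licensing factor Cdt1 had a log2 fold change of -0.53. Neither passed without EGFP-positive replicate 2 or any one EGFP-negative replicate, and Cdc20 did not pass without EGFP-positive replicate 3 (adjusted p of up to 0.154 and 0.129). Without EGFP-positive replicate 1 the list gave 8 lower and 4 higher.

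Mitochondrially encoded genes were lower by a similar size throughout, with 7 of 8 tested called and a median of -0.57. The count was 2, 3 and 4 without EGFP-negative replicates 1, 2 and 3. Another 5 are listed at 0 in all 6 libraries (mt-Nd4l, mt-Co2, mt-Co3, mt-Atp6 and mt-Atp8). A count of 0 here need not mean no expression, as mapping and counting were not tested. The mitochondrial share of gene reads given above holds no reads of these 5. mt-Nd1, of respiratory complex I, had 1410.0, 1441 and 1297 CPM against 2203, 1922 and 1936 CPM (log2 fold change -0.55 ± 0.09, adjusted p = 0.00364), with no overlap. Of 24 glycolysis and hypoxia genes, 3 were lower and 0 higher, against 7.07% and 8.99% of all genes tested. Without EGFP-positive replicate 1, 5 were lower and 1 higher. The lactate exporter gene Slc16a3 had 38.3, 42.8 and 40.1 CPM against 80.7, 75 and 73.3 CPM (log2 fold change -0.92 ± 0.12, adjusted p = 0.00144).

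Among 21 immediate early genes, 4 were higher and 1 lower, against 8.99% and 7.07% of all genes tested. Arc, which neurons induce with activity, had 93.2, 82.8 and 86.7 CPM against 40.5, 40.9 and 41 CPM (log2 fold change 1.10 ± 0.12, adjusted p = 0.00054), and the stress-induced factor gene Atf3 had 52.6, 46.6 and 41.6 CPM against 28.2, 25.9 and 23.6 CPM (log2 fold change 0.85 ± 0.15, adjusted p = 0.00508). Npas4, which depolarisation induces in neurons, fell, with 1.92, 3.25 and 2.12 CPM against 7.16, 7.28 and 5.71 CPM (log2 fold change -1.46 ± 0.27, adjusted p = 0.00679). Rises numbered 2 without EGFP-positive replicate 2 or EGFP-negative replicate 2 or 3, and the lower count was 2 without EGFP-positive replicate 1.

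Circadian clock genes gave 4 higher and 0 lower of 20, among them the repressor Nr1d1, with 50.2, 50.3 and 56.7 CPM against 34.7, 30.8 and 31.1 CPM (log2 fold change 0.70 ± 0.13, adjusted p = 0.00707). It did not pass without EGFP-negative replicate 2, with an adjusted p of up to 0.0513. The count was 11 without EGFP-positive replicate 1, 1 without EGFP-positive replicate 2 or EGFP-negative replicate 2, and 2 without EGFP-negative replicate 1 or 3. Over all genes tested, 8.99% were higher and 7.07% lower.

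Unfolded protein and integrated stress response genes gave 3 higher and 1 lower of 18, against 8.99% and 7.07% of all genes tested. The glutathione-degrading enzyme gene Chac1 had 56.8, 49.8 and 48.8 CPM against 30.5, 28.3 and 29 CPM (log2 fold change 0.82 ± 0.13, adjusted p = 0.00356) and Sdf2l1, of the endoplasmic reticulum, had 37.1, 27.9 and 22.9 CPM against 66.8, 57.2 and 59.5 CPM (log2 fold change -1.07 ± 0.18, adjusted p = 0.00503). Those counts were 6 and 3 without EGFP-positive replicate 1, and the higher count was 1 without EGFP-negative replicate 2.

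Of 31 imprinted genes tested, 2 were higher and 7 lower, against 8.99% and 7.07% of all genes tested. Mest had 277, 333 and 351 CPM against 162, 161 and 172 CPM (log2 fold change 0.96 ± 0.11, adjusted p = 0.000927). The growth factor gene Igf2 had 4.44, 3.76 and 2.49 CPM against 19.3, 14.5 and 16.4 CPM (log2 fold change -2.25 ± 0.24, adjusted p = 0.000654), though 64.5% of its exonic bases lie in exons of other genes. The number of rises was 4 without EGFP-positive replicate 1 and 1 without EGFP-positive replicate 2 or EGFP-negative replicate 1. Falls numbered 4 without EGFP-positive replicate 2 or EGFP-negative replicate 1.

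**Figure D3:**
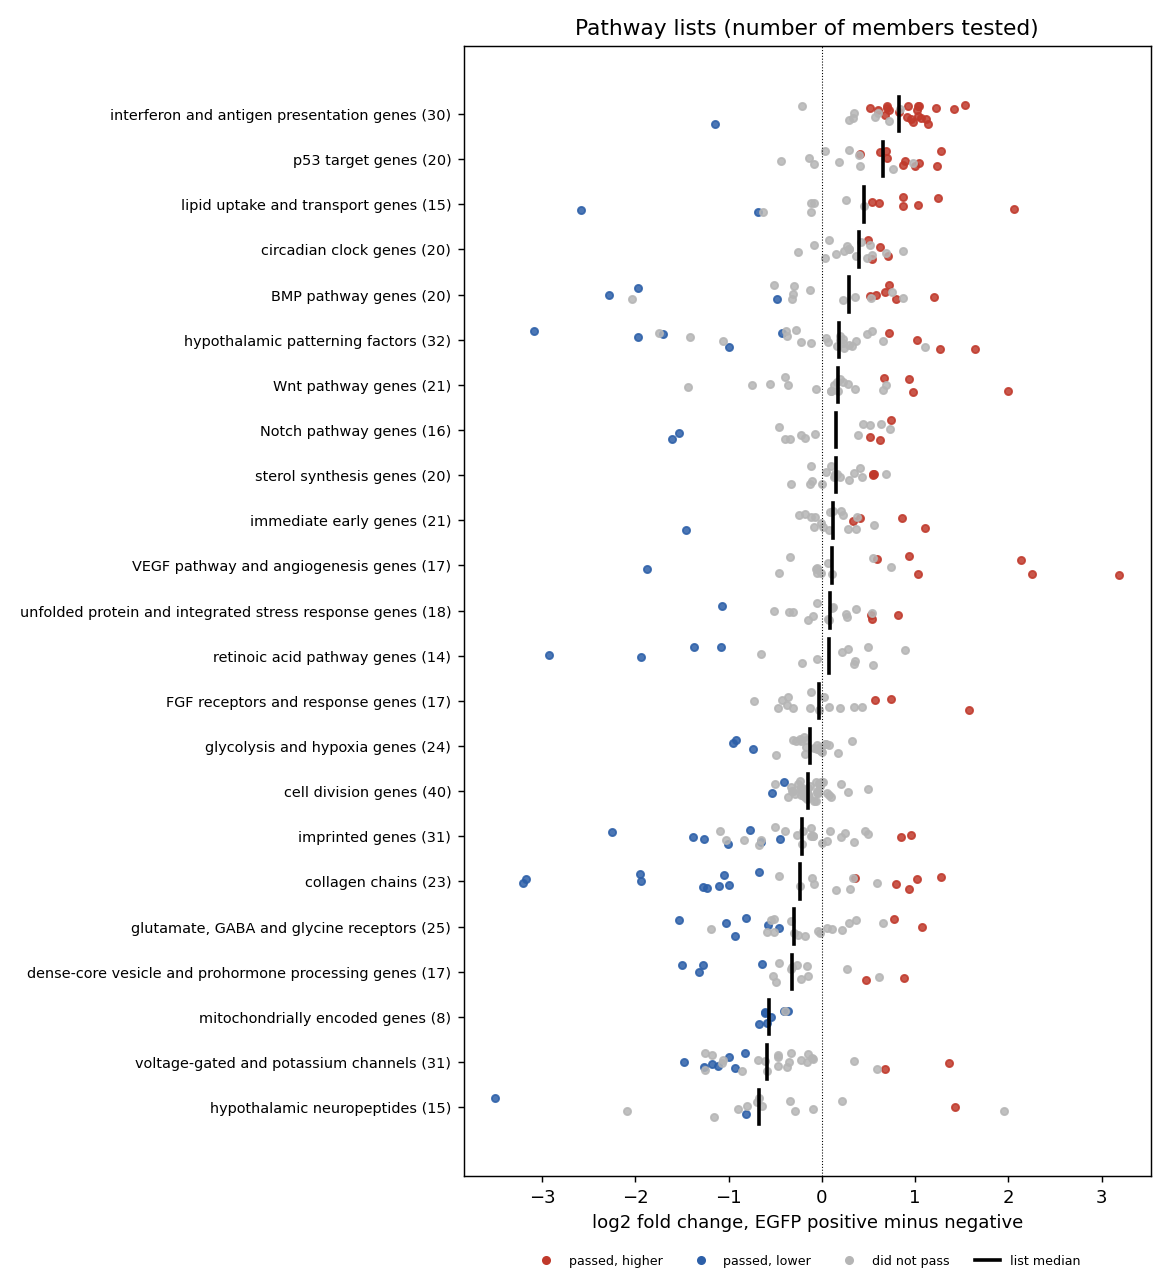
Log2 fold change of EGFP-positive against EGFP-negative cells (horizontal axis) for every tested member of 23 pathway and gene family lists, with red for genes that passed as higher, blue for lower, grey for those that did not pass and a black bar at each list's median. Medians run from 0.83 for interferon and antigen presentation genes to -0.67 for hypothalamic neuropeptides.

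To ask where the EGFP comparison differed from the mCherry comparison, the difference of the 2 effects was tested in a fit of all 12 libraries. The sorts shared no library. Of 18063 genes tested, 261 (1.44%) passed, 101 with the EGFP effect the more positive and 160 with it the more negative. In 189 of them the effects had opposite signs. The count depended on single libraries. It was 151, 43 and 114 without EGFP-positive replicates 1, 2 and 3 and 40, 35 and 27 without EGFP-negative replicates 1, 2 and 3. It was 591, 172 and 163 without mCherry-positive replicates 1, 2 and 3 and 275, 72 and 330 without the mCherry-negative ones.

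The largest rises in EGFP-positive cells were not shown to be particular to the EGFP sort. All 15 were positive in the mCherry sort too, 6 of them passed there, and 0 of the 15 passed the test of the difference. Pmch itself had an effect of 2.00 in the EGFP and 0.66 in the mCherry sort, a difference of 1.35 ± 0.77, adjusted p = 0.435, which did not pass. Kdr had effects of 3.21 and 2.15, Ttr 2.69 and 2.21, and Cckbr 1.99 and 2.41, all on the log2 scale. In this fit of 12 libraries Cckbr passed in both sorts and Kdr in the EGFP sort only. Ttr, with standard errors of 1.26 and 1.24, passed in neither (edgeR adjusted p = 0.263 and 0.275), although it passed in the fit of the 6 EGFP libraries. Astrocyte genes had median effects of 0.78 and 0.59, and 1 of 23 members, Aldh1l1, passed the test of the difference. Ependymal genes had medians of 1.00 and 1.21 with 0 of 20 passing. Of the 15 largest falls, 8 had the opposite sign in the mCherry sort, 0 passed there and 4 passed the test of the difference. Pituitary genes had medians of -2.36 and 2.8, with 1 of 11 passing that test. Pomc had effects of -3.48 and 4.39, and its difference of -7.87 ± 2.02 did not pass (edgeR adjusted p = 0.0744).

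Oligodendrocyte genes did differ between the sorts. Of the 19 mature genes, 10 passed the test of the difference, all with the EGFP effect the more negative, and the list's median effect was -1.75 in the EGFP and 0.25 in the mCherry sort. Mbp had effects of -1.74 and 0.39, a difference of -2.12 ± 0.24, adjusted p = 0.00181. Mag had -2.48 and 0.25 (-2.72 ± 0.35, adjusted p = 0.00326). Both fell in the EGFP sort and had small positive values, none passing, in the mCherry sort. Their differences passed in each of the 12 fits with 1 library left out. The count of 10 was 5 without EGFP-positive replicate 2 or EGFP-negative replicate 2 or 3, and 6 without EGFP-negative replicate 1 or mCherry-negative replicate 2. Of the 14 precursor genes 6 passed, with median effects of -1.62 and -0.49. That count was 3 without EGFP-positive replicate 2 or any one EGFP-negative replicate.

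**Figure D4:**
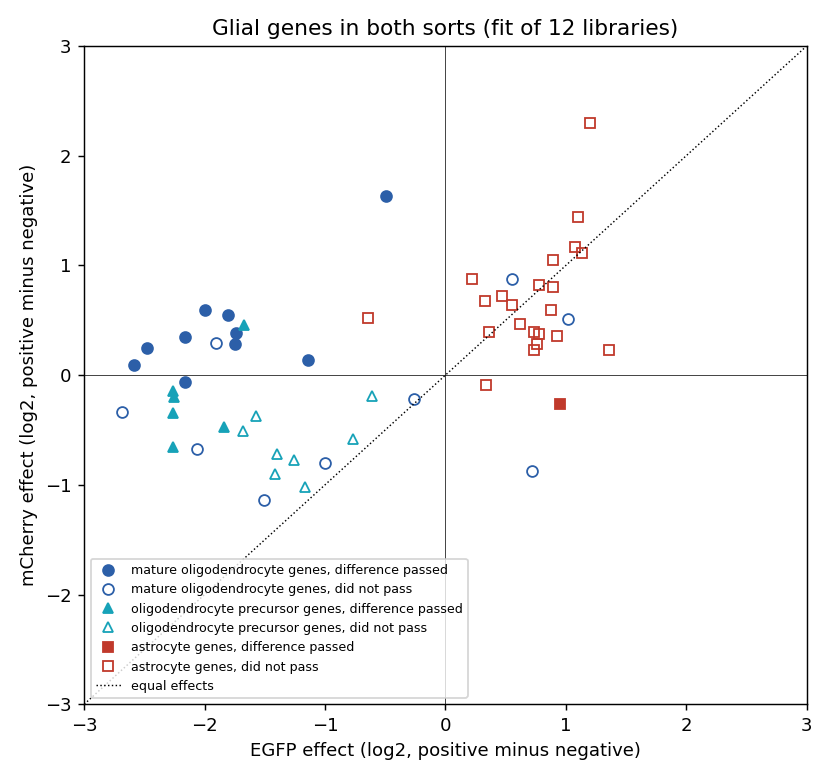
EGFP effect (horizontal axis) against mCherry effect (vertical axis), both log2 positive minus negative from the fit of 12 libraries, for mature oligodendrocyte genes (circles), precursor genes (triangles) and astrocyte genes (squares), filled where the difference passed. The 10 filled circles all lie above the dotted line of equal effects, and 1 of 23 squares is filled.

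Microglia and macrophage genes had median effects of -2.69 in the EGFP and 1.63 in the mCherry sort, and 5 of 21 members passed the test of the difference. The count was 1 without EGFP-positive replicate 1 or 2, any one EGFP-negative replicate or mCherry-negative replicate 2, and 2 without EGFP-positive replicate 3 or mCherry-negative replicate 1. It was 8 without mCherry-positive replicate 2 or 3 and 12 without mCherry-negative replicate 3. With all libraries it was 10 with DESeq2, 16 without a filter, 8 with a stricter filter, 1 with the replicate number as a block and 0 with limma-voom. Cell division genes had median effects of -0.13 and -1.32, and 18 of 40 passed with the EGFP effect the less negative. That count was 1 without EGFP-positive replicate 2 or EGFP-negative replicate 2 or 3, 2 without EGFP-negative replicate 1, 8 without EGFP-positive replicate 3 or mCherry-negative replicate 2 and 9 without mCherry-positive replicate 3, and it was 31 with DESeq2 or without a filter. Of 8 mitochondrially encoded genes 4 passed, with median effects of -0.55 and 0.63, and 0 passed without EGFP-positive replicate 2, any one EGFP-negative replicate, mCherry-positive replicate 2 or mCherry-negative replicate 2. The count was 1 without EGFP-positive replicate 1 or 3 and 7 without mCherry-positive replicate 3, and with all libraries it was 7 with DESeq2.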

How the data were processed

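RNA-seq of sorted mouse neurosphere cells was analysed from the whole-number counts per gene that the authors deposited for each sample. Per the submitters' processing notes, cutadapt 1.8, STAR 2.5.2b, HTSeq 0.6.1 and GRCm38 were used; annotation release and strand setting are not given in the sources used here. Per the labels' protocols, cDNA was made with SMART-Seq v4 (11 PCR cycles) and libraries with Nextera XT from 150 pg of it. The 5 HTSeq summary rows of each file were left out, and together they held 31.4% to 38.2% of all counts. Gene IDs were matched to GENCODE M21 (48349 of 48709).

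The 6 EGFP libraries were fitted by group with edgeR 4.0.16 (R 4.3.3): TMM factors, filterByExpr (minimum count 10, minimum total 15), quasi-likelihood test, Benjamini-Hochberg adjusted p below 0.05. Difference of the EGFP and mCherry effects came from 1 fit of all 12 libraries. Counts of 16069 genes were simulated on the model of the EGFP libraries. Of 99 genes changed by 1 on the log2 scale 68.7% were recovered, and of 100 changed by 2, 100%. Of the calls, 4.55% were false. The simulation gave every gene the same spread, changed 200 genes and held no library that stood apart as EGFP-positive replicate 1 did. These shares therefore need not hold for the data.

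The members and the 39 gene lists were chosen with earlier results of these data known. Named genes were Pmch, the 15 largest rises and falls among called genes of at least 5 CPM on average, groups that did not overlap and no clone or predicted-gene symbol, and from each list the called members with the smallest adjusted p, 5 at most; S100b, P2ry12, Cd14, Ogn, Aspa, Mx2, Aldh1l1, the endothelial genes below the filter and the genes of the promoter search were named after their values were seen. Some genes that the rule names are not reported here. Alternatives were other size factors, filters, DESeq2 1.42.0, limma-voom (limma 3.58.1), the replicate number as a block and each library left out.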

Additional observations from a re-analysis of the deposited data

Results flagged for a closer look

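For 23 of the genes named above, the effect in the EGFP sort differed from that in the mCherry sort by the edgeR test of the difference over all 12 libraries. About 1.44% of all genes tested passed it. Values are the EGFP effect minus the mCherry effect on the log2 scale.

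Oligodendrocyte lineage genes were among the more negative values: -2.72 for Mag, -2.68 for Cldn11, -2.51 for Myrf, -2.12 for Mbp, -2.13 for Itpr2, -2.12 for Bmp4, -2.10 for Bcas1, -1.60 for Sox10 and -1.36 for Lhfpl3. The cell surface genes Dscam and Igsf9b had -2.69 and -2.47. Their EGFP effects were -2.43 and -2.45, while their mCherry effects were 0.26 and 0.02, neither passing in that sort.

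The neuronal genes Slc17a6 and Scg2 had -4.22 and -3.37. In the fit of all 12 libraries their mCherry effects of 2.97 and 2.07 passed, while their EGFP effects of -1.25 and -1.30 did not (edgeR adjusted p = 0.268 and 0.181), although both genes fell in the fit of the 6 EGFP libraries (-1.27 and -1.32). Cx3cr1 had -8.68, which rests on 3, 1 and 2 reads in the EGFP-positive libraries and depends on the prior count. The Wnt inhibitor Frzb had -1.79, the lactate exporter Slc16a3 -1.25, and the mitochondrially encoded genes mt-Nd4, mt-Cytb and mt-Co1 -1.35, -1.05 and -1.02. In the EGFP comparison itself, Frzb did not pass without EGFP-positive replicate 2 or EGFP-negative replicate 1 or 2, with an adjusted p of up to 0.0927, mt-Co1 without EGFP-negative replicate 1, 2 or 3, with an adjusted p of up to 0.107, and mt-Nd4 without EGFP-negative replicate 1 or 2, with an adjusted p of up to 0.0643. More positive in the EGFP sort were Acta2 (2.10), Tagln (1.85), Arc (1.36) and Cdc20 (1.17).

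With each of the 12 libraries left out in turn, 7 of the 23 passed every time, namely Mbp, Mag, Bcas1, Bmp4, Itpr2, Dscam and Cx3cr1. The other 16 did not pass in 2 to 10 of the 12 fits, from Arc and Tagln (2 fits each) to Scg2 and Slc16a3 (10 fits each), with an adjusted p of at most 0.116 (Acta2).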

How the results depend on the processing

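Pmch rose under every alternative run, with log2 fold changes from 1.887 without EGFP-negative replicate 1 to 2.067 without EGFP-negative replicate 2. Genes called higher numbered 1394 to 1966 over the other normalizations, filters and tools, and genes called lower 1121 to 1554, all within 1.5 times of 1468 and 1154. Leaving out 1 library gave 644 to 2884 higher and 480 to 2360 lower, with the largest counts without EGFP-positive replicate 1. Genes called for a difference between the sorts numbered 261, 675 without a filter, 894 with DESeq2, 195 to 346 under the other alternatives, and 27 to 591 with 1 library left out. Over 170 named genes and 2207 values, 2048 kept their side of the threshold, 159 lost it and 0 reversed. Of the 159, 7 came from a setting other than a left-out library. Of 1014 counts of list members, 835 stayed within 1.5 times. No scaling moved the median of all genes by more than 0.04.

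Whether the replicate numbers pair the samples is not known, and so few libraries cannot decide it. Same-numbered positive and negative libraries had correlations of 0.169, 0.000948 and 0.0656 in their deviations from the group means. Pairs of unlike number had -0.15 to 0.0928, and not every library correlated best with its own number. With the replicate number as a block, 1874 genes were higher and 1535 lower, against 1468 and 1154 without it. In the same setting 293 differed between the sorts, Pmch had 1.989 and no named gene lost its call. Depth limits the genes with few reads most: changes of genes below 0.097 to 0.184 CPM per library were not detectable.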
